A study of Chlorocebus sabaeus with 45 samples.

Results

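The genes described here are 10 immediate early genes of the AP-1, EGR and IER families (FOS, FOSB, FOSL2, JUN, JUNB, JUND, ATF3, EGR1, EGR2 and IER2), chosen by their symbols among the 33994 genes listed for each sample. All 10 were listed, and all 10 were among the 18753 genes that passed the filter for testing. The samples were whole blood of 15 juvenile male vervets (Chlorocebus sabaeus) caught on St. Kitts, and each animal was sampled 3 times, which gave 45 RNA-seq libraries with globin and ribosomal RNA depleted. The day 0 sample was drawn in the field just after trapping under ketamine and xylazine, whereas the samples of day 3 and day 14 were drawn under dexmedetomidine and midazolam from the same animals, then housed singly in quarantine. No animals stayed in the field as a control, so for every difference from day 0 the effects of time, place and sedative cannot be told apart.

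AP-1 is a dimer of basic leucine zipper proteins. A FOS family member (FOS, FOSB, FOSL2) or an ATF protein such as ATF3 pairs with a JUN family member (JUN, JUNB, JUND), and the pair binds DNA at AP-1 sites. Most of these genes are immediate early genes: MAP kinases that activate factors already present in the cell, such as ELK1, SRF and CREB1, switch on their transcription without new protein synthesis, and the messages are short-lived. JUND differs from its paralogs in being transcribed at a steadier level. EGR1 and EGR2 are zinc finger factors induced through the same kinases, and IER2 is a small nuclear protein of the same early response. In blood, neutrophils hold much FOS and JUNB message.

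Levels are given as scaled FPKM, that is, fragments relative to the length of the gene and the size of the library, with TMM scaling (trimmed mean of M values) between libraries, and can be compared between genes. On day 0 the median levels ran from JUNB (127 scaled FPKM) through JUND (57.4), FOS (44.4), IER2 (20.3), FOSL2 (19.7), JUN (3.24) and ATF3 (0.822) to FOSB (0.133), EGR2 (0.128) and EGR1 (0.0978). Not all neighbours in this order were distinct. IER2 exceeded FOSL2 in 9 of 15 animals, FOSB exceeded EGR2 in 7, and EGR2 exceeded EGR1 in 11, with overlapping ranges in each case. By contrast, JUN was above ATF3 and ATF3 above FOSB in 15 of 15 animals with no overlap. FOSB, EGR1 and EGR2 were close to the limit of detection. They rested on 2 to 88 fragments, 2 to 24 fragments and 0 to 23 fragments per library, so that a few fragments more or less move their values.

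From day 0 to day 3, FOS, FOSL2 and JUNB fell. By day 14 EGR2 and IER2 were also lower than on day 0, and JUND was higher. In limma, fitted with a mean for each day and Benjamini-Hochberg adjustment over all tested genes (called at an adjusted p-value under 0.05), 3 of the 10 genes were called on day 3 vs. day 0, against 12.4% of all tested genes. All 3 were down-regulated, in comparison with 6.44% of all genes down and 5.95% up. On day 14 vs. day 0, 6 were called, against 36.2% of all genes. Of these 5 were down-regulated (19.4% of all genes) and 1 was up-regulated (16.8%). With all libraries the share called stood above that of all genes in both comparisons. The 10 genes, and the lists of related genes below, were chosen with earlier results of these data known. Such shares are therefore descriptive and do not test the family. Without 4 libraries that stood apart from the others of their day, 0 were called by limma on day 3 (6 at an unadjusted p-value under 0.05) against 10.2% of all genes, and 6 on day 14 against 35.6%. The median log2 fold change of the 10 genes was −0.26 on day 3 and −0.36 on day 14, and that of all tested genes 0.01 and −0.05. Without TMM the median of all tested genes on day 14 was −0.36, and 1465 genes were called up and 7799 down in place of 3158 and 3631. Of the 6 genes called on day 14, all 6 kept their direction and their call under that scaling. As fold changes are taken on the scale of log2(scaled FPKM + 0.1), they understate the change of the 3 scarcest genes. In bulk blood, fewer cells of a type and less RNA per cell cannot be told apart.

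**Figure D1:**
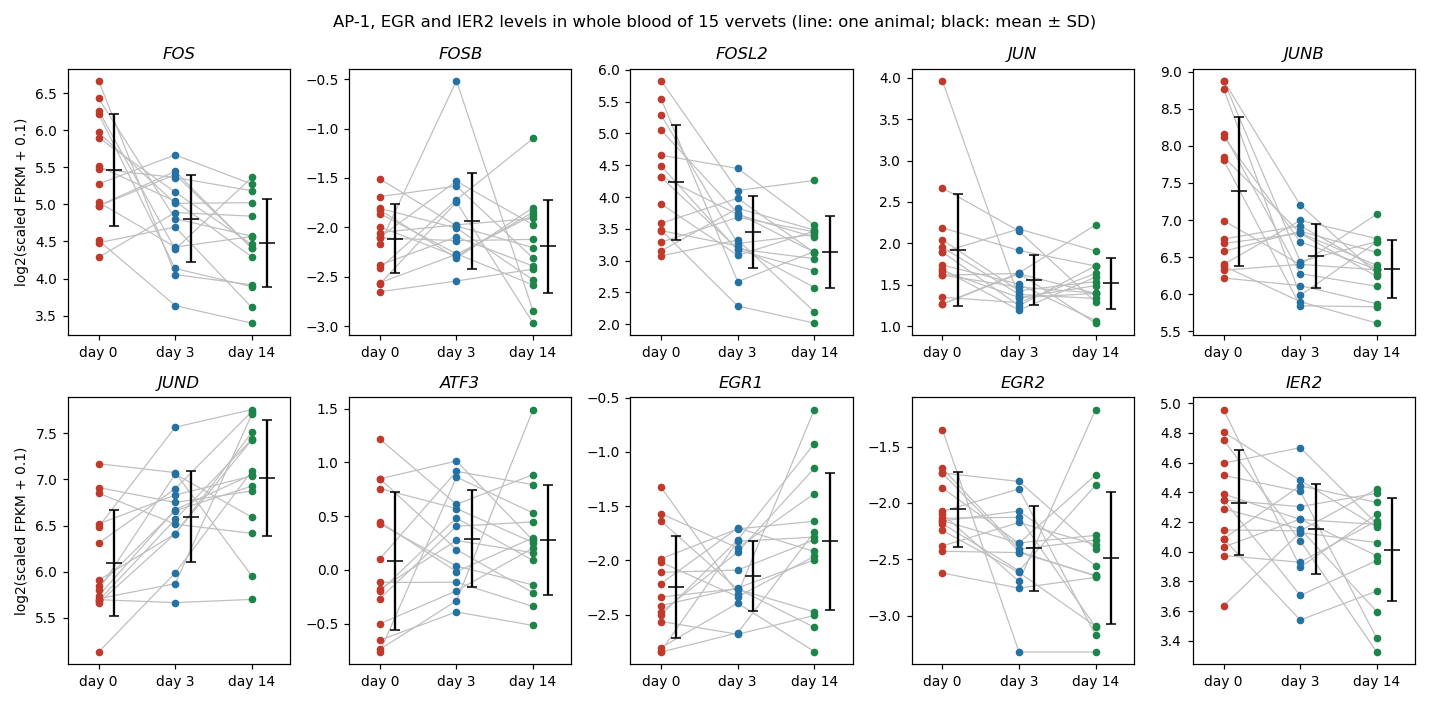
Each panel shows 1 gene, with log2(scaled FPKM + 0.1) on the y axis and the day on the x axis. Coloured points are the 15 animals, grey lines join the samples of 1 animal, and black bars are the mean ± SD. FOS, FOSL2 and JUNB start high and widely spread on day 0 and are lower and closer together later, while JUND climbs, and single animals stand far from the rest for JUN on day 0 and for FOSB on day 3.

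JUNB, which had the highest median level of the 10 genes on day 0, lay between 74.3 and 471 scaled FPKM in the field samples, with a median of 127. On day 3 the lowest, median and highest values were 57.3, 86.7 and 147, and on day 14 they were 48.7, 80.5 and 135. The ranges overlapped, but 7 of the 15 field samples lay above every later sample. The mean went from 210 ± 148 (SD, n = 15) to 94.9 ± 27.5 on day 3 (log2 fold change −0.87, SE 0.24, adjusted p = 0.0120 from limma) and 83.8 ± 22.6 on day 14 (−1.05, SE 0.24, adjusted p = 5.56e-04). Relative to its own field sample, JUNB was lower in 10 animals by day 3 and in 12 animals by day 14. The spread shrank with the level, as the SD of the log2 values was 1.0 on day 0, 0.43 on day 3 and 0.39 on day 14.

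FOSL2, a FOS family member without the strong activation domain of FOS, lay between 8.33 and 56.7 scaled FPKM on day 0, with a median of 19.7. The lowest, median and highest values were 4.78, 9.91 and 21.7 on day 3 and 3.95, 8.74 and 19.1 on day 14. Of the field samples, 6 were above every day 3 sample and 8 above every day 14 sample. The log2 fold change was −0.78 on day 3 (SE 0.24, adjusted p = 0.0286 from limma, lower in 11 animals) and −1.09 on day 14 (SE 0.24, adjusted p = 4.73e-04, lower in 13 animals). The day 3 call was lost when any one of animals 2, 4, 7, 11 and 13 was left out (adjusted p up to 0.106), with a term for RNA integrity (RIN) in the fit (−0.71, adjusted p = 0.0750) and without the filter on low values (adjusted p = 0.0505).

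FOS, the partner of the JUN proteins that gives AP-1 its strongest activation, had a lowest, median and highest level of 19.4, 44.4 and 102 scaled FPKM on day 0. The corresponding values were 12.3, 29.5 and 50.7 on day 3 and 10.4, 21.9 and 41.1 on day 14. The ranges overlapped, with 6 field samples above all of day 3 and 8 above all of day 14, while 3 samples of day 3 and 4 of day 14 lay below every field sample. On day 14 the log2 fold change was −0.99 (SE 0.23, adjusted p = 7.20e-04 from limma) and FOS was lower in 14 of 15 animals. On day 3 it was −0.66 (SE 0.23, adjusted p = 0.0499, lower in 10 animals), so close to the threshold that the call was lost when 0.01 or 1 was added before the logarithm in place of 0.1 (adjusted p = 0.0505 and 0.0503). It was also lost when any one of animals 1, 2, 4, 7, 8, 11, 13, 14 and 15 was left out (adjusted p up to 0.139), with the RIN term (−0.60, adjusted p = 0.114) and without the filter on low values (adjusted p = 0.0872). Animal 4 had the highest FOS in the field, and its level fell by 2.61 on the log2 scale to day 3.

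The falls in FOS, FOSL2 and JUNB were not spread evenly over the animals. In the field samples JUNB stood at 437 to 471 scaled FPKM in animals 7, 11 and 15, at 224 to 287 in animals 2, 4, 8 and 13, and at 74.3 to 127 in the other 8. These 3 sets of animals were cut at the 2 widest gaps in the mean log2 level of 8 neutrophil markers (CSF3R, CXCR1, CXCR2, FPR1, MME, S100A8, S100A9 and ALPL). That mean was 9.46 to 9.70, 7.6 to 8.53 and 6.15 to 6.75 in them, a separation fixed by the cut. FOSL2 was 38.9 to 56.7 in the first 3 animals, 19.7 to 33.1 in the next 4 and 8.33 to 19.9 in the 8. FOS was 62.6 to 86.1 in the first 3 animals, 44.4 to 102 in the next 4 and 19.4 to 45.6 in the 8. The libraries of animals 7, 11 and 15 on day 0 and of animal 8 on day 3 were also the 4 with the lowest median correlation to the other libraries of their day across genes (0.935 to 0.943, the remaining libraries 0.952 to 0.972). Without these 4 libraries none of the 10 genes was called on day 3: JUNB, FOSL2 and FOS changed by −0.52, −0.52 and −0.50 (adjusted p = 0.0926, 0.122 and 0.175 from limma), in a fit that called 10.2% of all genes. On day 14 vs. day 0 FOS, FOSL2, JUNB and JUND were still called without the 4 libraries, whereas IER2 (−0.22, adjusted p = 0.183) and EGR2 (−0.41, adjusted p = 0.0544) were not and JUN and EGR1 were.

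The neutrophil markers moved with FOS, FOSL2 and JUNB. On day 3, 4 of the 8 markers were called down, against 6.44% of all genes, and 6 with the replicate block (9.26%). On day 14, 7 of 8 were down, against 19.4% of all genes. With the RIN term 3 were down on day 3 and 2 on day 14 (4.24% and 11.2% of all genes). With both the block and that term 4 and 7 were down (7.33% and 11.8%). The RIN was itself higher on average on the later days than on day 0, so that RIN and day cannot be fully told apart. The summed level of the 8 ranged from 1251 to 40766 scaled FPKM on day 0, 514 to 6666 on day 3 and 511 to 4190 on day 14, with no marker at 0 in any library. Within day 3, the mean marker level was related to FOS (Pearson's r = 0.891, Spearman's rho = 0.843, n = 15, permutation p = 1e-05 and 1.9e-04, adjusted p = 3.3e-04 and 0.00418 over 66 relations). The value of 1e-05 is the smallest that 100000 permutations can give. For JUNB r was 0.757 and rho 0.704 (permutation p = 5.2e-04 and 0.00436, adjusted p = 0.00490 and 0.0320), and for FOSL2 0.697 and 0.746 (permutation p = 0.00385 and 0.00203, adjusted p = 0.0212 and 0.0167). Within day 14, r and rho were 0.842 and 0.814 for FOS (permutation p = 1.4e-04 and 4.5e-04, adjusted p = 0.00231 and 0.00607), 0.794 and 0.693 for JUNB (4.2e-04 and 0.00615, adjusted 0.00462 and 0.0338) and 0.80 and 0.811 for FOSL2 (3.4e-04 and 4.6e-04, adjusted 0.00449 and 0.00607). Without the 2 animals farthest from the median marker level, r stayed between 0.570 and 0.809 on day 3 and between 0.605 and 0.762 on day 14. Within day 0 the animals fell into the 3 sets above, and a relation was tested in the largest, of 8 animals. It did not pass for FOS (r = 0.259, permutation p = 0.535, adjusted p = 0.803). Nor did it for FOSL2 (r = −0.148, permutation p = 0.731, adjusted p = 0.878) or JUNB (r = −0.035, permutation p = 0.932, adjusted p = 0.961). The marker mean spanned only 6.15 to 6.75 in these 8, too narrow a range to decide whether a relation held on day 0. Within day 3 and day 14, the genes called down on day 14 did not all go with the markers. EGR2 was related to them inversely by r within day 14 (r = −0.666, permutation p = 0.00653, adjusted p = 0.0269) but not by rho (−0.543, permutation p = 0.0390, adjusted p = 0.151), and r was −0.344 without the 2 farthest animals. For IER2 r was −0.270 within day 3 and −0.249 within day 14 (permutation p = 0.330 and 0.371, adjusted p = 0.660 and 0.703). Its rho was −0.307 and −0.268 (permutation p = 0.265 and 0.333, adjusted p = 0.604 and 0.685). Without the 2 farthest animals r was −0.422 and −0.624. On day 0, however, IER2 was 12.3 to 20.266 scaled FPKM in the set lowest in the markers. It was 20.8 to 27.8 in the middle set and 20.271 to 31.0 in the highest. Some markers of other blood cells were called as well. On day 3, 6 of 6 platelet, 2 of 6 NK cell and 1 of 6 monocyte markers were up, against 5.95% of all genes. On day 14, 4 of 6 NK cell, 2 of 6 platelet and 2 of 7 T cell markers were up, against 16.8% of all genes. On that day 3 of 6 monocyte and 1 of 5 B cell markers were down, against 19.4% of all genes. The B cell count was near that share. These counts moved with the setting. With the replicate block 5 NK cell markers were up on day 3 (10.1% of all genes). Of the T cell markers CD8A was then up (0.38, adjusted p = 0.00493 from limma) and IL7R down (−0.31, adjusted p = 0.0455). On day 14 the block gave 5 NK cell, 4 platelet and 3 T cell markers up (20.7% of all genes). It gave 3 monocyte and 2 B cell markers down (23.4%). Without the 4 libraries that stand apart 6 platelet and 1 monocyte marker were up on day 3 and 0 NK cell markers (6.02% of all genes). On day 14 the numbers were 6 NK cell, 2 platelet and 1 T cell marker up (17.6%). In that fit 1 monocyte and 5 of 5 B cell markers were down (18%). Without TMM 3 T cell markers were down on day 14 and 0 up, beside 41.6% and 7.81% of all genes. The part of neutrophil RNA, or of RNA from these other cells, in the falls of these genes was not tested.

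**Figure D2:**
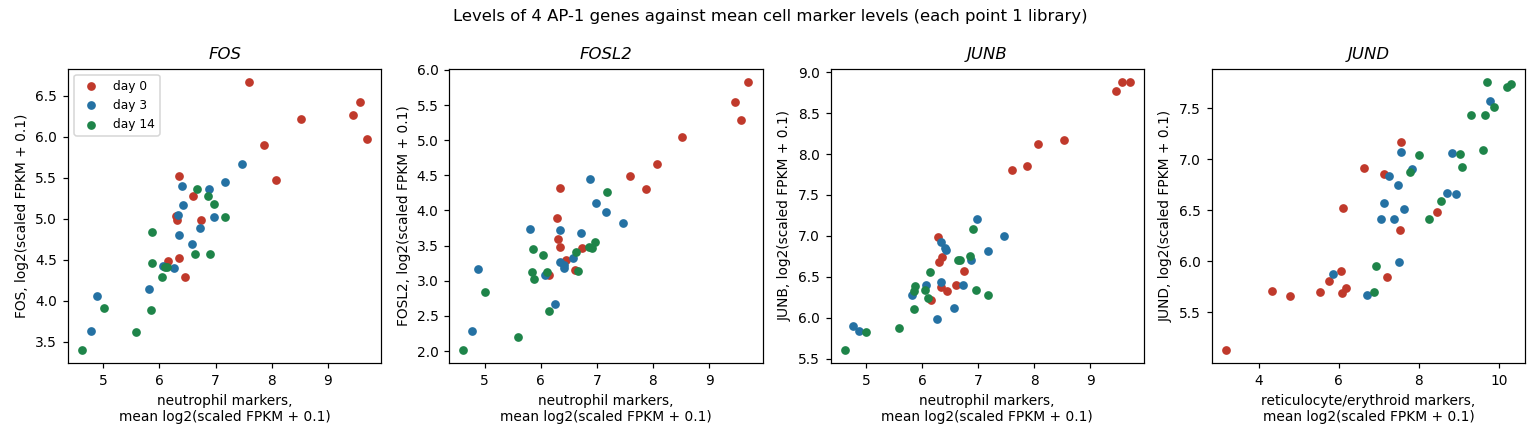
Each point is 1 library, coloured by day. The x axis is the mean log2(scaled FPKM + 0.1) of 8 neutrophil markers (first 3 panels) or 7 reticulocyte and erythroid precursor markers (last panel), and the y axis is log2(scaled FPKM + 0.1) of FOS, FOSL2, JUNB or JUND. Points of JUNB on day 0 lie in 3 separate sets, and those of JUND move to the upper right from day 0 to day 14.

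JUND, the JUN paralog transcribed at the steadiest level in most cells, moved the other way. It ranged from 35.0 to 144 scaled FPKM on day 0 (median 57.4), from 50.7 to 189 on day 3 (median 101) and from 51.9 to 216 on day 14 (median 133). On day 14, 6 samples were above every field sample and 4 field samples below every day 14 sample. The mean went from 73.8 ± 31.8 (SD, n = 15) to 140 ± 53.1 on day 14 (log2 fold change 0.92, SE 0.20, adjusted p = 4.03e-04 from limma), with a rise in 12 of 15 animals. On day 3 the change of 0.50 (SE 0.20, adjusted p = 0.0982, higher in 11 animals) missed the threshold, which it passed without TMM (0.46, adjusted p = 0.0325). The exceptions on day 14 included animal 13, in which JUND fell from 144 to 62.0, and animal 8 rose most, by 2.0 on the log2 scale.

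The make-up of the JUN family messages shifted from JUNB to JUND within libraries, a measure that scaling between libraries cannot move. JUND made up 10.5% to 53.9% of the summed FPKM of JUN, JUNB and JUND on day 0 (median 31.5%), 35.3% to 74.3% on day 3 (median 47.0%) and 41.9% to 72.8% on day 14 (median 63.8%). Its share was above the animal's own field value in 15 of 15 animals on day 3 and in 14 on day 14. JUND exceeded JUNB in 1 field sample, 7 samples of day 3 and 11 of day 14. JUN contributed 0.416% to 7.24% on day 0 and 0.685% to 2.51% on day 14. The make-up of the FOS family moved by less than its spread between animals. FOS was 69.6% ± 7.32 (SD, n = 15) of FOS, FOSB and FOSL2 on day 0, 71.4% ± 6.61 on day 3 and 71.2% ± 5.62 on day 14.

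**Figure D3:**
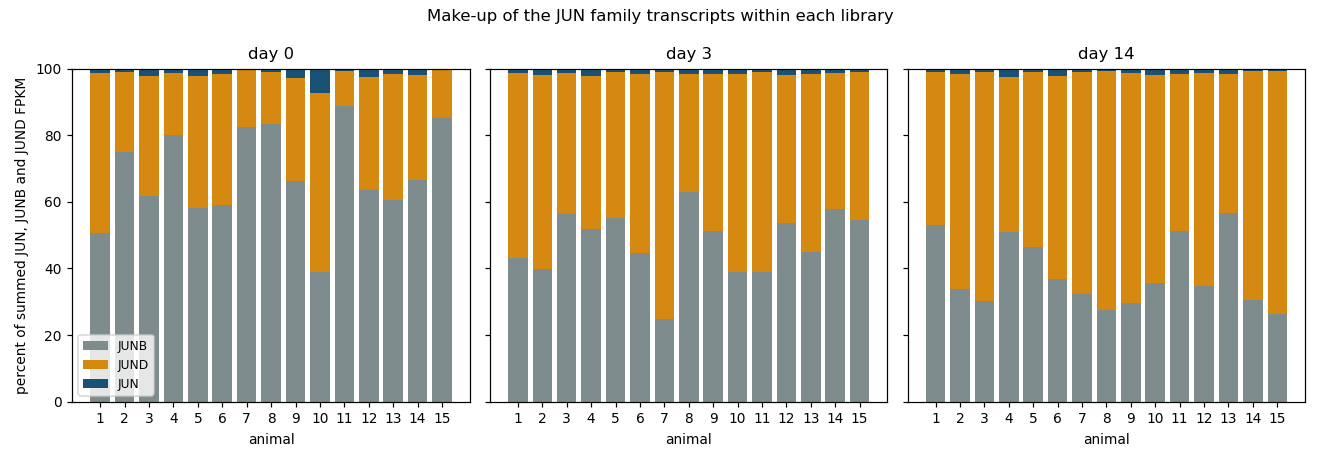
Stacked bars give the percent of the summed FPKM of JUNB, JUND and JUN in each of the 15 animals (x axis), in 1 panel per day. JUNB exceeds JUND in the field samples except that of animal 10, and JUND exceeds JUNB in 11 of 15 animals by day 14. Animal 10 on day 0 is the bar with a visible JUN part.

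JUND went along with 7 red cell precursor markers, such as ALAS2, the first enzyme of heme synthesis in red cells, and SLC4A1, the red cell anion exchanger. Of these 7, 3 were called up on day 3, against 5.95% of all genes, and 5 with the replicate block (10.1%). On day 14, 7 were called up, against 16.8% of all genes. Their summed level ranged from 386 to 20893 scaled FPKM on day 0, 3304 to 37305 on day 3 and 6466 to 60126 on day 14. None was at 0 in any library. Their mean log2 level was related to JUND within each day. On day 0, r was 0.736 and rho 0.775 (n = 15, permutation p = 0.00155 and 0.00105, adjusted p = 0.0102 and 0.0115). On day 3 they were 0.748 and 0.696 (permutation p = 0.00142 and 0.00501, adjusted p = 0.0102 and 0.0331). On day 14 they reached 0.914 and 0.921 (permutation p = 1e-05 for both, adjusted p = 3.3e-04 and 6.6e-04). Without the 2 farthest animals r was 0.664, 0.515 and 0.816. Animal 13, whose JUND fell, was at 7.6 in the field and 6.9 on day 14 for this marker mean, whereas animal 8 went from 4.3 to 10.2. Of the other genes, FOSB was related to this mean inversely by r within day 3 (r = −0.680, permutation p = 0.00556, adjusted p = 0.0262) but not by rho (−0.589, permutation p = 0.0230, adjusted p = 0.0948), and r was −0.304 without the 2 farthest. The part of red cell precursor RNA in the rise of JUND was not tested.

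JUN, the prototype of the family, had a lowest, median and highest level of 2.30, 3.24 and 15.5 scaled FPKM on day 0. The values were 2.19, 2.67 and 4.41 on day 3 and 1.95, 2.71 and 4.57 on day 14, and the ranges overlapped, with 3 field samples above all of day 3 and 2 above all of day 14. The highest, of animal 10, rested on 1375 fragments, and the next highest field value was 6.26. JUN changed by −0.36 on day 3 (SE 0.17, adjusted p = 0.154 from limma) and by −0.40 on day 14 (SE 0.17, adjusted p = 0.0540), and was lower than on day 0 in 11 animals each time. With the animal as a replicate block, JUN was called on day 14 (adjusted p = 0.0460). In the fit with the RIN term, JUN was called on both days (−0.51 and −0.70, adjusted p = 0.0411 and 0.0043). Without the field library of animal 10 the changes were −0.22 and −0.26 (adjusted p = 0.281 and 0.105), and without animal 6 JUN was called on day 14 (−0.49, adjusted p = 0.0193).

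EGR1 and EGR2 share induction through SRF-dependent promoters. EGR2 ranged from 0.0626 to 0.293 scaled FPKM on day 0 (median 0.128), from 0 to 0.185 on day 3 (median 0.0882) and from 0 to 0.344 on day 14 (median 0.0701), where 7 samples were below every field sample and animal 4 was above all of them. It was listed at 0 in animal 11 on both later days. Its log2 fold change was −0.34 on day 3 (SE 0.16, adjusted p = 0.166 from limma) and −0.43 on day 14 (SE 0.16, adjusted p = 0.0326, and 0.0610 without the filter on low values), lower in 11 animals each time. EGR2 reached the expression filter mainly through the field samples, of which 10 were above 0.5 CPM (fragments scaled to the library's total) against 3 on day 3 and 2 on day 14. Without animal 11 the day 14 change was −0.32 (adjusted p = 0.0957), and the call was also lost without animal 1, 2, 6, 7, 13 or 14.

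EGR1 ranged from 0.0392 to 0.298 scaled FPKM on day 0 (median 0.0978), from 0.0560 to 0.207 on day 3 (median 0.110) and from 0.0396 to 0.555 on day 14 (median 0.185). Of the day 14 samples, 3 were above every field sample. It changed by 0.10 on day 3 (SE 0.18, adjusted p = 0.776 from limma) and by 0.42 on day 14 (SE 0.18, adjusted p = 0.0609, higher in 12 animals). With the replicate block it was called up on day 14 (adjusted p = 0.0233), as it was when animal 1, 3 or 11 was left out (adjusted p = 0.0454, 0.0438 and 0.0248).

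FOSB, a paralog of FOS known from repeatedly stimulated neurons, showed no change that passed the test. Its levels were 0.0591 to 0.251 scaled FPKM on day 0, 0.0716 to 0.599 on day 3 and 0.0277 to 0.366 on day 14, and its log2 fold changes were 0.18 and −0.08 (adjusted p = 0.524 and 0.731 from limma). The highest value, in animal 8 on day 3, rested on 88 fragments, and the next highest of that day was 0.246.

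ATF3, a stress-induced leucine zipper factor that pairs with JUN proteins, had medians of 0.822, 1.11 and 1.09 scaled FPKM on days 0, 3 and 14, with ranges of 0.489 to 2.22, 0.662 to 1.92 and 0.599 to 2.71. Its level exceeded the animal's field value in 10 animals by day 3 and in 8 by day 14, and neither change passed the test (0.21 and 0.20, SE 0.20, adjusted p = 0.551 and 0.454 from limma). IER2 lay between 12.3 and 31.0 scaled FPKM on day 0 (median 20.3), between 11.5 and 25.9 on day 3 (median 17.7) and between 9.92 and 21.3 on day 14 (median 17.9). It fell by 0.32 on the log2 scale to day 14 (SE 0.12, adjusted p = 0.0354 from limma, lower in 10 animals), with an adjusted p of 0.0618 without the filter on low values. The call was lost when any one of animals 2, 4, 5, 7, 8, 10, 11 and 15 was left out (adjusted p up to 0.137). On day 3 it changed by −0.17 (adjusted p = 0.382).

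**Figure D4:**
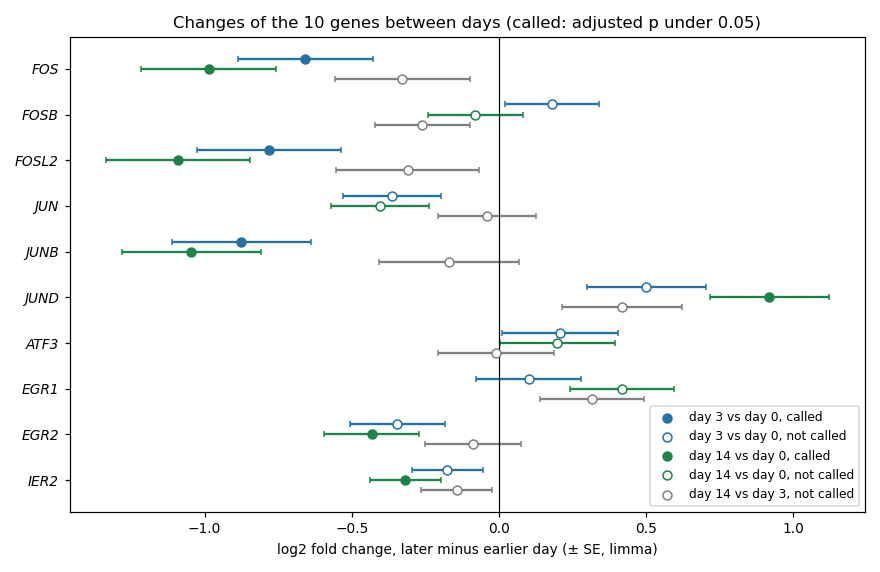
The x axis is the log2 fold change between days (later minus earlier) for each of the 10 genes, and bars are the SE from limma. Filled points passed an adjusted p-value of 0.05. FOS, FOSL2 and JUNB are filled on both days against day 0, JUND lies to the right, and no point of day 14 vs. day 3 is filled.

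Between day 3 and day 14, both under the same housing and sedation, none of the 10 genes was called by limma, against 14.5% of all tested genes. At an unadjusted p-value under 0.05 there was 1, JUND (0.42, SE 0.20, adjusted p = 0.148, higher in 12 animals). With limma-voom on fragment counts, and with the replicate block, the number called was also 0. FOS and JUNB were lower on day 14 than on day 3 in 12 of 15 animals each, with log2 fold changes of −0.33 (SE 0.23, adjusted p = 0.334) and −0.17 (SE 0.24, adjusted p = 0.663). Without TMM, FOS, FOSL2, JUNB and IER2 were called down (−0.68, −0.66, −0.52 and −0.49), in a setting where the median of all tested genes was −0.35 and 35.3% of them were called down.

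The relations of FOS, FOSL2 and JUNB to each other between animals were computed within day 3 and within day 14. FOS and JUNB had r = 0.843 and rho = 0.846 within day 3 (n = 15, permutation p = 1.2e-04 and 1.4e-04, adjusted p = 0.00231 and 0.00418) and r = 0.712 and rho = 0.689 within day 14 (0.0032 and 0.00614, adjusted 0.0192 and 0.0338). Without the 2 animals farthest from the median of FOS, r was 0.758 and 0.573. FOS and FOSL2 had r = 0.67 and rho = 0.625 within day 3 (permutation p = 0.00606 and 0.0143, adjusted p = 0.0267 and 0.0673) and r = 0.753 and rho = 0.775 within day 14 (0.00116 and 0.00122, adjusted 0.00957 and 0.0115), with r = 0.478 and 0.755 without the 2 farthest. FOSL2 and JUNB had r = 0.676 and rho = 0.629 within day 3 (0.00523 and 0.0137, adjusted 0.0262 and 0.0673), and their relation within day 14 did not pass the threshold (r = 0.55, rho = 0.514, permutation p = 0.0335 and 0.0532, adjusted p = 0.123 and 0.175). Over the 45 libraries, after removal of the time point means, the 5 genes most like FOS among 10939 genes with a mean of at least 5 CPM were TREM1 (r = 0.890), CXCR2 (0.883), NLRP12 (0.879), TNFRSF10D (0.866) and TNFRSF10C (0.865). CXCR2, a chemokine receptor, is one of the neutrophil markers above, and TREM1 is an activating receptor of neutrophils and monocytes. These libraries share animals, and the values are descriptive.

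The genes most like JUN were others. They were STIP1 (r = 0.777), RANGAP1 (0.768), FKBP4 (0.766), HSPH1 (0.75) and PCBD1 (0.747), of which STIP1 and FKBP4 are co-chaperones of HSP90 and HSPH1 is a heat shock protein. The field library of animal 10 carried part of this likeness, since without it the values were 0.604, 0.631, 0.547, 0.533 and 0.588. In that library HSPH1 was at 683 scaled FPKM and FKBP4 at 210, and the next highest field values were 188 and 61.5. The genes most like EGR1 were TAB3 (0.679), TAB2 (0.669), PRR13 (0.659), RAPGEF2 (0.633) and IRS2 (0.631). EGR1 itself rested on 2 to 24 fragments per library, so these values are uncertain. It was above 0.5 CPM in 5, 5 and 8 libraries of days 0, 3 and 14.

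Relatives of the 10 genes mostly did not pass the test, and the share called down on day 14 was near that of all genes. The list held FOSL1, the BATF and small MAF proteins, JDP2, ATF2, ATF7, EGR3, EGR4 and the EGR co-repressors NAB1 and NAB2, 16 genes in all, of which 13 were tested. On day 3 vs. day 0 ATF2, a stress kinase target that pairs with JUN, was down (from 32.8 ± 5.30 to 25.4 ± 4.27 scaled FPKM, log2 fold change −0.37, SE 0.08, adjusted p = 0.00335 from limma, and −0.24 without the 4 libraries that stand apart). In all 1 gene was down (6.44% of all genes), 1 was up (5.95%) and 11 were not called. On day 14 vs. day 0, 3 of 13 were down, with 19.4% of all genes down, and 0 were up. With the replicate block 5 were down, beside 23.4% of all genes, and without TMM 8 were, beside 41.6%. The 3 called without it were MAFG (−0.83, adjusted p = 1.46e-04, lower in 14 animals, −0.53 without the 4 libraries), ATF7 (−0.58) and MAFK (−0.32). Only ATF7 was called between day 3 and day 14 (−0.54, adjusted p = 0.0395 from limma, and 0.0960 without the 4 libraries), while 7.32% of all genes were called down. With the replicate block 2 were down, beside 13.2% of all genes. The median log2 fold change of the list was −0.07 on day 3 and −0.16 on day 14.

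Among other immediate early genes, those that passed the test were nearly all down. Of 36 on the list 31 were tested. As the list was chosen with earlier results of these data known, its shares beside those of all genes are descriptive. On day 3, 14 were down (against 6.44% of all tested genes), 1 was up (5.95%) and 16 were not called. On day 14, 18 were down (19.4% of all genes), 1 was up (16.8%) and 12 were not called. The median log2 fold change was −0.38 on both days. Without the 4 libraries that stand apart 8 were down and 0 up on day 3 (4.21% and 6.02% of all genes), and 14 were down and 1 up on day 14 (18% and 17.6%). In the same comparisons 4 and 7 of the 8 neutrophil markers were down, or 2 and 4 without those libraries, and the part of neutrophil RNA in the falls of these genes was not tested. Not all pointed down, as the genes not called included NR4A1, an orphan nuclear receptor (0.38 and 0.44), and DUSP4, a MAP kinase phosphatase (0.27 and 0.36), both chosen after their values were seen. KLF2, a quiescence factor of lymphocytes and endothelium, fell from 142 ± 36.5 scaled FPKM to 90.6 ± 18.6 on day 3 (−0.64, SE 0.11, adjusted p = 3.69e-04 from limma) and 78.8 ± 9.94 on day 14 (−0.82, adjusted p = 6.03e-07) and was lower in 15 of 15 animals each time. PTGS2, the inducible cyclooxygenase, went from 51.9 ± 53.3 to 8.31 ± 5.78 on day 3 (−2.15, and −1.61 without the 4 libraries), and IER5, a relative of IER2, fell by 0.78. On day 14 ZFP36, which destabilizes AU-rich messages, fell from 29.5 ± 16.2 to 13 ± 2.89 (−1.02, SE 0.18, adjusted p = 3.23e-05, lower in 13 animals), and CSRNP1 fell by 0.64. BHLHE40, a transcriptional repressor, was the gene called up, at 7.8 ± 2.24 on day 0, 11.2 ± 3.12 on day 3 (0.54, SE 0.15, adjusted p = 0.0143, higher in 15 animals, adjusted p = 0.0503 without the 4 libraries) and 11 ± 3.08 on day 14 (0.50, SE 0.15, adjusted p = 0.00741, higher in 13 animals). Between day 3 and day 14 MYC was the one gene called (−0.33, SE 0.08, adjusted p = 0.0104 from limma), while 7.32% of all genes were called down. Without TMM 13 were down, beside 35.3% of all genes. On day 14, 2 of these genes were up with the replicate block, BHLHE40 and NR4A1.

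**Figure D5:**
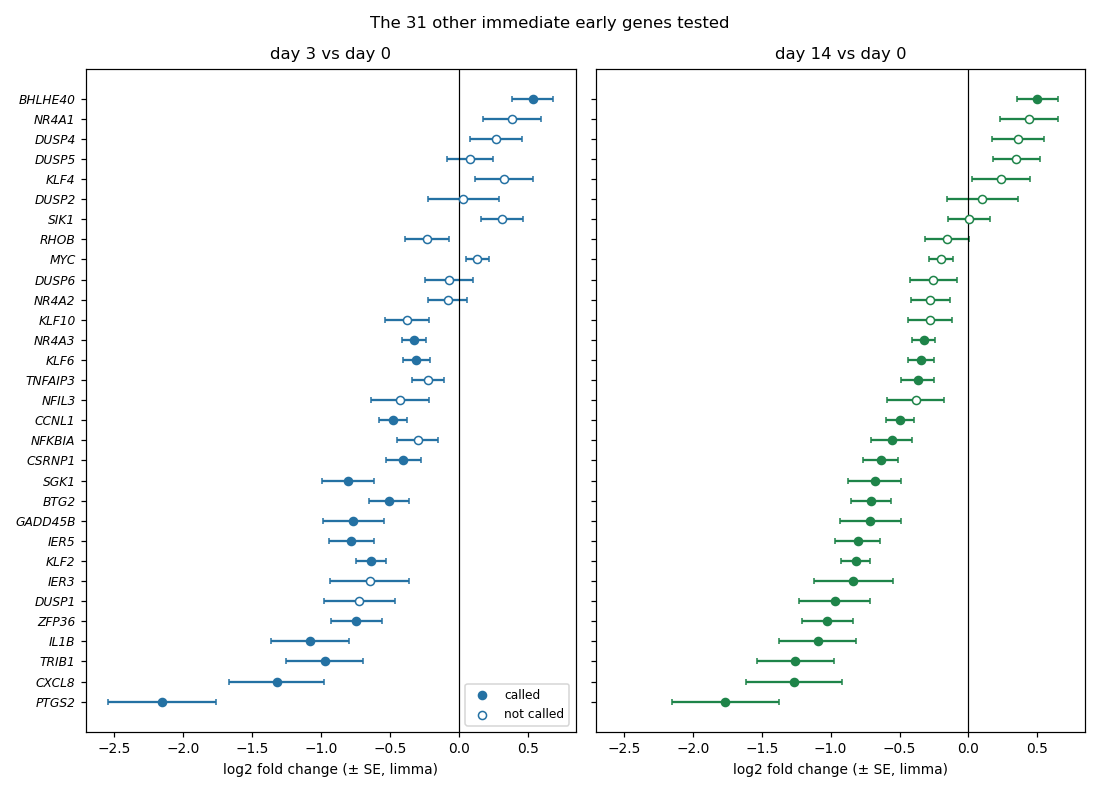
The log2 fold change (x axis, bars are the SE from limma) of each of the 31 other immediate early genes tested (y axis) is shown for day 3 and day 14 vs. day 0, with filled points for an adjusted p-value under 0.05. Filled points lie to the left of 0 for 14 genes on day 3 and 18 on day 14, with PTGS2 farthest left, and BHLHE40 is the filled point on the right.

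Of 27 kinases and factors upstream of these genes, all tested, 3 were up and 5 down on day 3 (5.95% and 6.44% of all genes). On day 14, 3 were up, a share below the 16.8% of all genes, and 10 were down (19.4% of all genes). With the replicate block 3 were up and 6 down on day 3 (10.1% and 9.26% of all genes), and 4 up and 10 down on day 14 (20.7% and 23.4%). Without the 4 libraries that stand apart 3 were up and 3 down on day 3 (6.02% and 4.21%), and 4 were up and 5 down on day 14 (17.6% and 18%), so that the share down on day 14 was then near that of all genes. Without TMM 2 were up and 18 down on day 14, where 7.81% of all genes were up and 41.6% down. The MAP kinase kinases MAP2K3, which acts on p38, and MAP2K7, which acts on JNK, rose on day 3 (0.96 and 0.76, adjusted p = 0.0147 and 0.0184 from limma, each higher in 14 animals). By day 14 MAP2K3 had gone from 15.6 ± 6.22 to 52.0 ± 46.5 scaled FPKM (1.42, SE 0.27, adjusted p = 5.97e-05) and MAP2K7 from 7.11 ± 2.75 to 16.9 ± 9.45 (1.14, SE 0.22, adjusted p = 9.10e-05). ELK1, an SRF partner, was up on day 3 (0.37, not called without the 4 libraries, adjusted p = 0.0966), and RPS6KA1, a kinase downstream of ERK, on day 14 (0.63). MAPK14, which encodes p38 itself, fell by 0.68 on day 3 and by 0.99 on day 14 (SE 0.18, adjusted p = 2.83e-05, lower in 14 animals), or by 0.38 and 0.64 without the 4 libraries. CREB1, a factor bound at the FOS promoter, fell by 0.38 on day 3 and by 0.34 on day 14. Between day 3 and day 14 MAP2K4 was up (0.26) and MKL1, a co-activator of SRF, was down (−0.39). These were the only 2 called there, while 7.17% of all genes were up and 7.32% down. With the replicate block 2 were down there, beside 13.2% of all genes. Without the 4 libraries MAP2K4 and MKL1 were not called (adjusted p = 0.0511 and 0.0704 from limma).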

How the data were processed

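Whole-blood RNA of 15 vervets on days 0, 3 and 14 was analysed as 45 libraries (the design text of the series gives day 15 for the last). The authors made the base calls with bcl2fastq 2.17, aligned reads with STAR to the vervet genome and counted them per gene with HTSeq. Whether the counting used strand is not given in the sources used here. The authors deposited FPKM, with no scaling between libraries. All values above 0 were whole multiples of what 1 fragment was worth (tolerance 0.01 fragments), which gave 13216275 to 31469332 fragments per library.

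FPKM were scaled by TMM (30% of M and 5% of A values trimmed), 0.1 was added, and log2 values were fitted with limma 3.58.1 in R 4.3.3 (one mean per time point, intensity trend). Genes had more than 0.5 CPM in at least 3 samples. The fit was tested on simulated data. Relations within a day used 100000 two-sided permutations (exact for 8 animals) in Python 3.11.15. Each animal gave a sample on each day. After removal of the time point means, the 45 pairs of libraries of the same animal correlated across genes with a mean r of 0.328 (−0.04 to 0.583), and different animals with a mean r of −0.04. Alternatives were another pseudocount, no TMM, no filter, the replicate block, the RNA integrity number (RIN, from the sample list of the study) as a covariate, both, limma-voom and leaving out each animal. Leaving out the 4 libraries that stand apart, or the field library of animal 10, was chosen after seeing the data.

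The 10 genes and the lists were chosen with earlier results of these data known. Named genes are the 10, the 3 lowest adjusted p-values per list, comparison and direction, and the 5 most like FOS, JUN and EGR1, and some genes that the rule names are not reported here. No promoter or protein sequence was used here.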

Additional observations from a re-analysis of the deposited data

How the results depend on the processing

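Of the 10 genes, limma called 3 for day 3 and 6 for day 14 against the field samples, and 0 for day 14 against day 3. For day 3 the number was 1 without the filter on low values, 0 without the 4 libraries that stand apart, 4 without TMM (JUND added) and with the block and RIN together (JUN added), and from 1 to 3 over the fits that each left out 1 animal. For day 14 against the field those fits gave 4 to 7, and 4 were called without the filter, which lost EGR2 and IER2. For day 14 against day 3 the number was 4 without TMM, where 38.6% of all tested genes were called, and 0 whichever animal was left out. A replicate block for the animal gave 3, 8 and 0, where it called 19.4%, 44.2% and 25.4% of all tested genes. The block added EGR1 and JUN on day 14 and changed no other call of the 10 genes. With the RIN as a covariate FOS and FOSL2 were not called on day 3 (−0.60 and −0.71, adjusted p = 0.114 and 0.0750 from limma) and JUN was (adjusted p = 0.0411), EGR2 was not called on day 14 (adjusted p = 0.0616), and JUN and EGR1 were (adjusted p = 0.0043 and 0.0180). The cause of these differences was not tested.

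The direction changed for ATF3 and JUN alone among the 10 genes, and in no case with a call. ATF3 from the field to day 14 was at −0.16 without TMM and −0.081 with the RIN covariate. From day 3 to day 14 it was at 0.013 without the 4 libraries and lay from −0.12 to 0.043 with 1 animal left out, where JUN lay from −0.081 to 0.019. With 1 animal left out, FOS on day 3 stayed called in 6 of 15 fits (−0.75 to −0.52) and FOSL2 in 10 (−0.88 to −0.61). JUNB stayed called in all 15, as did FOS, FOSL2, JUNB and JUND on day 14. Over the remaining alternatives 265 of 300 gene changes kept direction and call, 16 lost a call, 16 gained one and 3 changed direction. Depth limits EGR1, EGR2 and FOSB, for which a few fragments decide a value.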
